A study of Mus musculus with 2 samples.

Results

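Molecular chaperones keep other proteins folded, and 84 genes of the heat shock protein, chaperonin and cochaperone families had a row in the gene tables, of 43346 Ensembl genes in all. Members were chosen by gene symbol alone, as protein-coding genes of the HSP70, HSP90, HSP110, small heat shock, HSP60, HSP10, J-domain (HSP40), BAG and TRiC/CCT chaperonin families. Their RNA was measured by total RNA sequencing of midbrain from healthy B6NCrl mouse embryos at embryonic day 15.5. The 2 libraries came from separate pools of male and female embryos, 78 in replicate 1 and 62 in replicate 2, and each started from 10 ng of RNA longer than 200 nt with ERCC spike-in RNA added. No genotype, treatment or second age was compared, so the contrasts are between genes within this tissue and between the pools. A pool averages over embryos and cell types. Fewer cells of a type and less RNA per cell cannot be told apart in such bulk samples.

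Cells meet unfolded protein with several machines. HSP70 proteins bind exposed hydrophobic stretches and let go of them in a cycle driven by ATP. J-domain proteins bring clients to HSP70 and speed up its ATPase, while BAG-domain and HSP110 proteins help it exchange nucleotide. HSP90 acts later, on kinases, steroid receptors and other clients, together with its own cochaperones. The TRiC/CCT chaperonin is a ring-shaped complex of 8 different subunits that folds actin and tubulin, which growing neurons make in large amounts. HSP60 with its lid HSP10 does similar work in mitochondria, and small heat shock proteins hold unfolded protein without ATP. Heat shock factors switch on part of these genes under stress through heat shock elements in their promoters.

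The tables held 38966386 expected counts in replicate 1 and 40419493 in replicate 2. Levels are in TPM, the length-corrected share of each gene in a library. Means are given ± SD of the 2 libraries (n = 2). A count of 0 allows up to 3 counts. For a gene of 1000 nt these equal 0.143 TPM (replicate 1) or 0.138 TPM (replicate 2), for counting error only. The label midbrain was checked against region markers. All 6 midbrain markers were at 1 TPM or more in both libraries, led by Gata3 with 81.4 TPM in replicate 1 and 94.5 TPM in replicate 2. None of 4 hindbrain Hox genes reached 1 TPM, and Hoxa4 and Hoxb4 were at 0.

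The chaperone genes were abundant in the embryonic midbrain. Of the 84 members, 77 were at 1 TPM or more in both libraries, the level called expressed here, against 61.5% of all 21837 protein-coding genes. In both libraries 23 members passed 100 TPM, against 7.5% of protein-coding genes, and 19 members stood among the 1000 highest, against 4.58%. The members' median was 5.14 ± 0.0119 on the log2(TPM + 1) scale, and that of the other protein-coding genes was 2.59 ± 0.0221. The difference of these medians was 2.56 ± 0.034, which describes the spread between the pools and not the spread among genes. Among expressed genes alone it was 0.928 ± 0.12. Together the members took 1.25 ± 0.00849% of the TPM of all Ensembl genes. Hspa8, Hsp90ab1 and Hsp90aa1 alone made up 42.5 ± 0.404% of the members' TPM as deposited, and only these 3 passed 1000 TPM in both libraries.

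**Figure D1:**
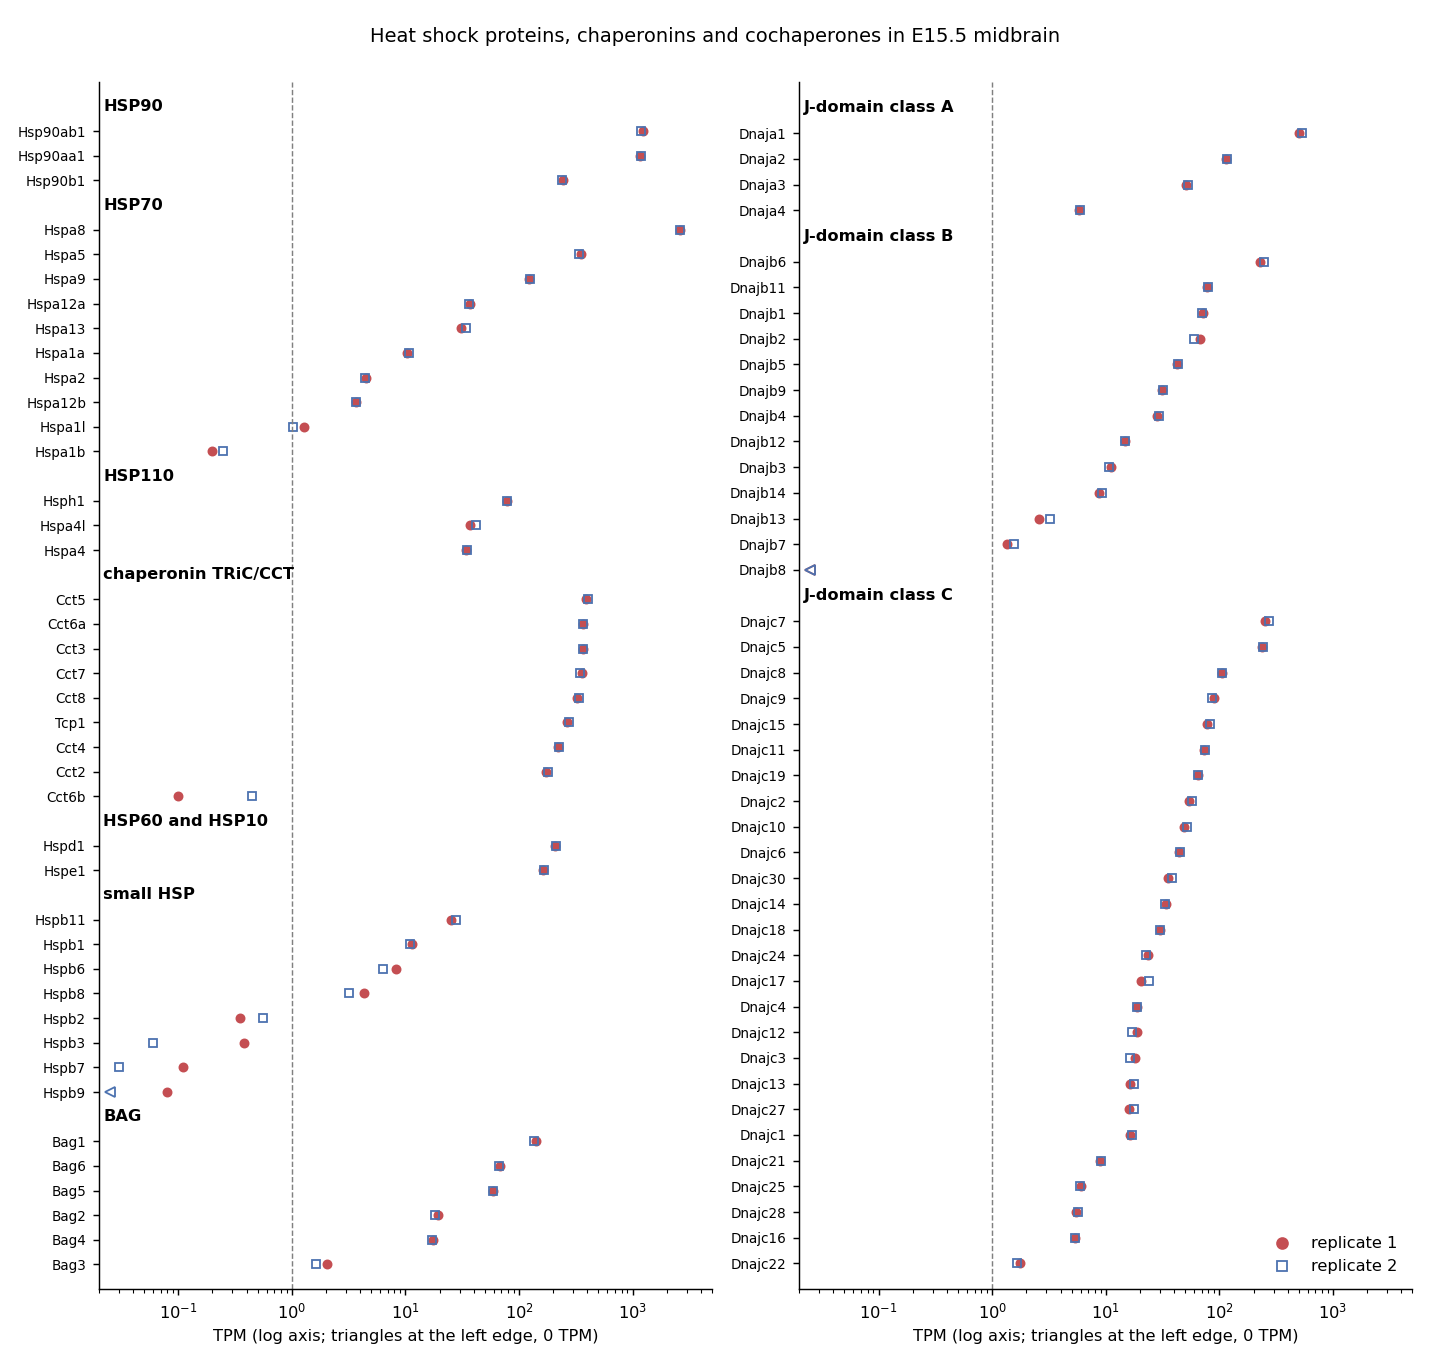
TPM of each of the 84 members on a log axis, grouped by family and sorted by mean within a family. Filled circles are replicate 1, open squares are replicate 2, triangles at the left edge mark 0 TPM, and the dashed line marks 1 TPM. Hspa8 and the cytosolic HSP90 genes sit highest, 8 chaperonin subunits lie close together above 100 TPM, and 4 of 8 small heat shock genes lie left of the dashed line.

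The HSP90 family was led by its cytosolic pair. Hsp90ab1, the constitutive cytosolic form, had 1237 TPM in replicate 1 and 1185 TPM in replicate 2. Hsp90aa1, the cytosolic form known to be stress inducible in many cell types, had 1168 TPM in replicate 1 and 1178 TPM in replicate 2. The values of these genes did not overlap, and the ratio of Hsp90aa1 to Hsp90ab1 was 0.944 in replicate 1 and 0.994 in replicate 2. Hsp90b1, the endoplasmic reticulum form GRP94, was lower in both libraries, with 245 TPM in replicate 1 and 237 TPM in replicate 2. In mm10, Hsp90aa1 lies on the minus strand of chromosome 12 (110690605 to 110702728) and Hsp90ab1 on the minus strand of chromosome 17 (45567775 to 45573271).

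The ratio of the cytosolic HSP90 genes depended on the transcript length that the counts are divided by. The deposited gene TPM adds the TPM of all transcripts, so short transcripts count strongly. For Hsp90aa1, the 711 nt transcript Hsp90aa1-208 took 52.0 ± 1.95% of the gene's TPM. The 3281 nt transcript Hsp90aa1-202 took 19.5 ± 0.0354% of the TPM but held 50.3% of the gene's reads, at 229 ± 1.75 TPM. For Hsp90ab1, the 2520 nt transcript Hsp90ab1-201 took 69.3 ± 0.693% of the TPM and 90.1% of the reads, at 840 ± 33.7 TPM. Dividing each gene's counts by the length of the 1 transcript with the most reads put the ratio of Hsp90aa1 to Hsp90ab1 at 0.489 ± 0.0238, in place of 0.969 ± 0.0352. This second measure was chosen after the data were seen.

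Hspa8 stood above every other member. This gene encodes HSC70, the constitutive cytosolic HSP70, which also strips clathrin from vesicles, and lies on the plus strand of chromosome 9 (40800984 to 40810087). It had 2623 TPM in replicate 1 and 2625 TPM in replicate 2, rank 18 among protein-coding genes, and took 82.5 ± 0.17% of the TPM of the 10 HSP70 genes. Hspa5, the endoplasmic reticulum form BiP, had 351 TPM in replicate 1 and 339 TPM in replicate 2. Hspa9, the mitochondrial form mortalin, had 123 TPM in replicate 1 and 124 TPM in replicate 2. These 3 were the HSP70 genes above 100 TPM, one for each main compartment, and their values did not overlap.

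The other HSP70 genes were far lower. The divergent member Hspa12a had 36.8 TPM in replicate 1 and 36.4 TPM in replicate 2, and the microsomal member Hspa13 had 31.1 and 34.0 TPM. Hspa12b, known from endothelium, had 3.69 TPM in replicate 1 and 3.70 TPM in replicate 2. Endothelial markers were present in both libraries, Cldn5 with 108 TPM in replicate 1 and 87.2 TPM in replicate 2. Hspa2, known from germ cells, had 4.51 TPM in replicate 1 and 4.37 TPM in replicate 2, and Hspa1l, known mainly from testis, had 1.28 and 1.02 TPM.

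The stress-inducible HSP70 pair was low. Hspa1a had 10.4 TPM in replicate 1 and 10.8 TPM in replicate 2, and Hspa1b had 0.20 TPM in replicate 1 and 0.25 TPM in replicate 2. The TPM of Hspa8 was 247 times the sum of both in replicate 1 and 238 times in replicate 2. The counts were 699 and 747 for Hspa1a in replicates 1 and 2, and 12 and 16 for Hspa1b. These genes are near copies of each other on the minus strand of chromosome 17, Hspa1a at 34969190 to 34972156 and Hspa1b at 34956436 to 34959238 (mm10). Of the 100 nt windows along the Hspa1b transcript, 49.9% occur unchanged in another gene, and Hspa1a held 1350 of them. The split of reads between Hspa1a and Hspa1b is uncertain, so their sum is also given. Read assignment was ambiguous, with a posterior SD over 10% of the count, for Hspa1b and Hspa1l, which are 2 of the 79 members that averaged 10 counts or more, against 1.89% of protein-coding genes.

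The copies also share their upstream sequence. Of 250 bases before the RefSeq starts (GRCm38.p6), 247 were the same in Hspa1a and Hspa1b, and 3 differed. Both are shown to let the copies be compared base by base. They read 5′ to 3′ on the minus strand, Hspa1a from chr17:34972157-34972406 and Hspa1b from chr17:34959239-34959488, with the differing bases in capitals.
Hspa1a: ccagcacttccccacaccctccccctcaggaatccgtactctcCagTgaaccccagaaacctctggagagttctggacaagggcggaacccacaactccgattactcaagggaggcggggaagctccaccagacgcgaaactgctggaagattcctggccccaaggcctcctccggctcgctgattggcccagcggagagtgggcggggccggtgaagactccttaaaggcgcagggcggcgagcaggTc
Hspa1b: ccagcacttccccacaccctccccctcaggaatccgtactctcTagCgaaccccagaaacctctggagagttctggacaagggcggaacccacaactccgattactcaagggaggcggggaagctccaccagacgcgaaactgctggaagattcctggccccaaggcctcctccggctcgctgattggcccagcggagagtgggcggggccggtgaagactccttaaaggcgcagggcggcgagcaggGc

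HSP110 proteins exchange nucleotide on HSP70. Hsph1 had 78.2 TPM in replicate 1 and 79.0 TPM in replicate 2, and was the highest of 3. Hspa4l had 37.1 TPM in replicate 1 and 41.8 TPM in replicate 2, above Hspa4 with 34.3 and 35.0 TPM. That order turned with the length used, since the ratio of Hspa4 to Hspa4l was 0.882 ± 0.0616 by deposited TPM and 1.79 ± 0.0667 by the length of 1 transcript. The transcript of Hspa4l with the most reads was 9479 nt long and is not in GENCODE M21, while Hspa4l-201, with the most TPM, was 2744 nt.

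The 8 ring subunits of the cytosolic chaperonin lay between 174 and 402 TPM. Each ring holds every subunit once, so their RNA levels can be set side by side. Cct5 was highest, with 390 TPM in replicate 1 and 402 TPM in replicate 2. Cct6a had 367 and 365 TPM, Cct3 had 368 and 362 TPM, and Cct7 had 356 and 346 TPM in replicates 1 and 2. The values of Cct6a and Cct3 overlapped, and those of the other neighbours in this order did not. Cct8 had 327 TPM in replicate 1 and 337 TPM in replicate 2, and Tcp1, which encodes the first subunit, had 263 and 278 TPM. Cct4 had 221 TPM in replicate 1 and 223 TPM in replicate 2, and Cct2 was lowest with 174 and 180 TPM. The highest subunit exceeded the lowest by 2.24 ± 0.00404-fold, and by 2.14 ± 0.00479-fold by the length of 1 transcript. That measure kept Cct5 highest but changed the order below it. Cct3 (342 ± 5.62) then lay below Cct7 (401 ± 6.43), and Cct4 (203.9 in replicate 1 and 204.0 in replicate 2) overlapped with Cct2 (198.2 and 205.9).

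Cct6b, a copy of the sixth subunit known mainly from testis, stood apart from the rest of the chaperonin. It had 0.10 TPM in replicate 1 and 0.45 TPM in replicate 2, from 4 and 19 counts. Its paralog Cct6a was annotated as a processed transcript in GENCODE M21 and as protein coding in RefSeq, and was kept as a member. Cct6a therefore carries its full TPM in a class that is not protein coding.

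Mitochondrial HSP60, encoded by Hspd1, had 208 TPM in replicate 1 and 212 TPM in replicate 2. Its lid HSP10, encoded by Hspe1, had 161 TPM in replicate 1 and 166 TPM in replicate 2. Hspd1 exceeded Hspe1 by 1.28 ± 0.00851-fold by deposited TPM and by 1.17 ± 0.014-fold by the length of 1 transcript.

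**Figure D2:**
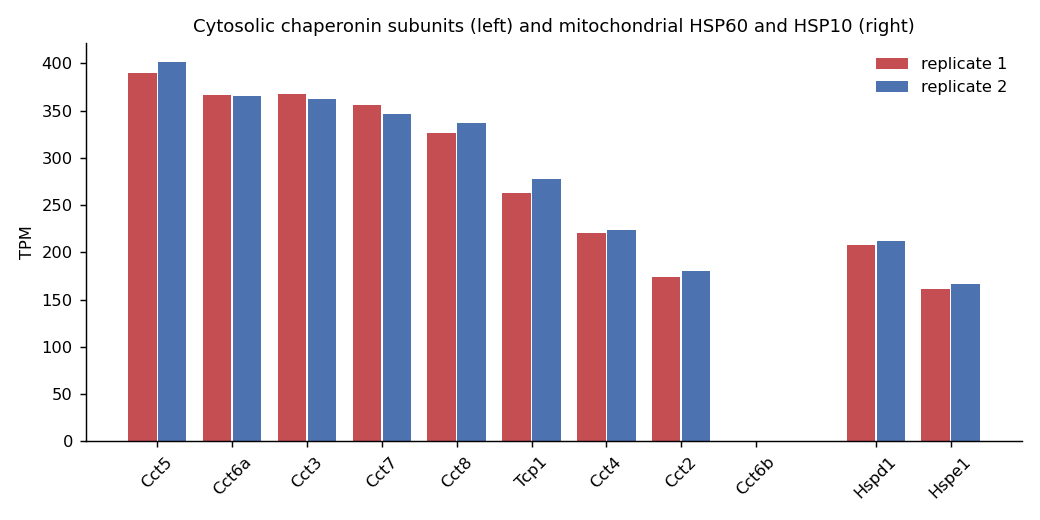
TPM of the 9 cytosolic chaperonin genes (left) and of mitochondrial Hspd1 and Hspe1 (right), with replicate 1 and replicate 2 as bars side by side, on an axis starting at 0. The 8 ring subunits run down from Cct5 to Cct2 over a 2.24-fold range, and Cct6b is too low to see.

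The neighbours Hspd1 and Hspe1 are read in opposite directions from a shared promoter on chromosome 1, and their RefSeq starts lie 216 bases apart. The stretch between those starts (GRCm38.p6 chr1:55087933-55088147, plus strand) is shown because it holds a heat shock element of 4 units. Its capitals mark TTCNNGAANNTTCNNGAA, which begins 89 bases before the Hspe1 start.
Hspd1 to Hspe1: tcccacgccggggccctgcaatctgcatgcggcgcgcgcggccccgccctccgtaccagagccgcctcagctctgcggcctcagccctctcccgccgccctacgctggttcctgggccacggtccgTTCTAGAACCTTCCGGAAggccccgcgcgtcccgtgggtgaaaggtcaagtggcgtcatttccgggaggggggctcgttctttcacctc

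Heat shock elements were searched on both strands in RefSeq promoter windows of 300 bases, 250 before and 50 after a start. Windows were found for 69 of the 84 members, and not for Hspa8, Hsp90aa1, Hsp90ab1 and 12 other members. The 4-unit element, written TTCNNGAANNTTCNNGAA or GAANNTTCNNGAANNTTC, was found in 2 of 69 members, Hspd1 and Hspe1, against 0.0361% of 16628 protein-coding genes with a window. The site in their shared promoter is 1 site counted for both genes, here and for the shorter elements. The 3-unit element, written TTCNNGAANNTTC or GAANNTTCNNGAA, lies within any 4-unit element and was found in 4 of 69 members, against 0.553%. The additional members were Dnajb6, a J-domain protein that holds back protein aggregation, and Hsph1. The 2-unit element, TTCNNGAA or GAANNTTC, was found in 19 of 69 members, Hspa1a and Hspa1b included, against 15.6%. The plain CCAAT box was found in 28 of 69 members, close to the 41.8% of all such genes. A match describes letters only and says nothing about binding in this tissue. In the Dnajb6 window (GRCm38.p6 chr5:29735832-29735884, plus strand) the element is in capitals and begins 46 bases before the start.
Dnajb6: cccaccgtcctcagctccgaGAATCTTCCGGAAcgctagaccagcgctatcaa

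J-domain genes were the largest set, with 43 members, of which 42 were expressed. Their summed TPM was 2584 in replicate 1 and 2669 in replicate 2, and that of the HSP70 genes they serve was 3185 and 3179. The ratio of the J-domain sum to the HSP70 sum was 0.825 ± 0.0202 by deposited TPM and 0.874 ± 0.0207 by the length of 1 transcript. By deposited TPM, Dnaja1, a general cytosolic partner of Hspa8, led them with 507 TPM in replicate 1 and 532 TPM in replicate 2. The next 4 by mean were Dnajc7, Dnajc5, Dnajb6 and Dnaja2, and the values of Dnajc5 and Dnajb6 overlapped. The order turned with the length used. By the length of 1 transcript, Dnaja1 (293.6 in replicate 1 and 305.3 in replicate 2) and Dnajb6 (281.9 and 308.1) overlapped, and Dnajc7 (171 ± 5.41) lay below Dnajb6 and Dnajc5 (286 ± 5.54). The median J-domain gene had 30.1 ± 0.0566 TPM.

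All 9 cytosolic HSP40 genes were expressed, and 4 of them passed 100 TPM in both libraries. Dnajc7, which binds both HSP70 and HSP90, had 251 TPM in replicate 1 and 271 TPM in replicate 2. Dnajb6 had 227 TPM in replicate 1 and 249 TPM in replicate 2. Dnaja2 had 114 TPM in replicate 1 and 117 TPM in replicate 2. Dnajb1, the heat-inducible HSP40 that works with HSP70 and HSP110 on aggregates, had 71.5 and 70.3 TPM. Dnajb2, known from neurons, had 67.5 TPM in replicate 1 and 59.3 TPM in replicate 2. Dnajb5 had 42.2 and 43.0 TPM, Dnajb4 had 28.5 and 29.3 TPM, and Dnaja4 had 5.80 and 5.87 TPM in replicates 1 and 2.

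All 11 endoplasmic reticulum members were expressed, and the J-domain genes among them were lower than Hspa5 and Hsp90b1 in both libraries. Dnajb11, a lumenal partner of BiP, had 77.1 TPM in replicate 1 and 78.9 TPM in replicate 2. Dnajc10, which reduces disulfide bonds, had 48.5 TPM in replicate 1 and 51.7 TPM in replicate 2. Dnajb9, a BiP partner induced by endoplasmic reticulum stress, had 31.3 and 31.6 TPM. Dnajc3 had 18.0 and 16.3 TPM, Dnajc1 had 16.2 and 17.0 TPM, and Dnajc25 had 6.05 and 5.91 TPM. The membrane-anchored Dnajb12 had 14.7 TPM in replicate 1 and 14.8 TPM in replicate 2, and Dnajb14 had 8.73 and 9.26 TPM.

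The promoters of 3 of these genes hold an endoplasmic reticulum stress element. This element, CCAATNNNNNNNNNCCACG on either strand, was found in 3 of 69 members, Hspa5, Hsp90b1 and Dnajc3, against 0.168% of protein-coding genes with a window. It contains the CCAAT box counted before. The matches are shown because their genes work in the same compartment, with the element in capitals. They lie at chr2:34772005-34772063 (plus strand) for Hspa5, chr10:86705618-86705676 (minus strand) for Hsp90b1 and chr14:118937807-118937865 (plus strand) for Dnajc3, all in GRCm38.p6. The elements begin 65 bases before the start of Hspa5, 212 before that of Hsp90b1, which holds 2 copies, and 105 before that of Dnajc3.
Hspa5: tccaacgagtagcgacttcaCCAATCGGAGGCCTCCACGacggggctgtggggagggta
Hsp90b1: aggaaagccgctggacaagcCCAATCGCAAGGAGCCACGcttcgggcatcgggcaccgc
Dnajc3: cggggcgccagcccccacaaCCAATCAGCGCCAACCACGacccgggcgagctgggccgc

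All 9 mitochondrial members were expressed. Besides Hspd1, Hspe1 and Hspa9, the highest was Dnajc15, a J-domain protein of the inner membrane, with 77.2 TPM in replicate 1 and 82.0 TPM in replicate 2. Its relative Dnajc19 had 64.9 and 64.5 TPM, and Dnajc11, tied to cristae structure, had 73.5 and 75.4 TPM. The matrix cochaperone Dnaja3 had 51.0 TPM in replicate 1 and 53.3 TPM in replicate 2. Dnajc30 had 35.5 and 38.5 TPM, and Dnajc28 had 5.47 and 5.65 TPM in replicates 1 and 2.

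J-domain genes of vesicles and synapses were expressed before birth. Dnajc5, the cysteine string protein of synaptic vesicles, had 238 TPM in replicate 1 and 241 TPM in replicate 2. Dnajc6 encodes auxilin, the neuronal partner of HSC70 in clathrin uncoating, and had 43.8 and 45.4 TPM. Dnajc13, an endosomal protein, had 16.5 TPM in replicate 1 and 17.6 TPM in replicate 2. Dnajc12, which binds aromatic amino acid hydroxylases, had 19.0 TPM in replicate 1 and 16.8 TPM in replicate 2.

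Nuclear and ribosomal J-domain genes were expressed as well, 5 of 5 in the list. Dnajc8, a splicing-related protein, had 106.1 TPM in replicate 1 and 105.8 TPM in replicate 2. Dnajc9, a histone chaperone, had 90.2 TPM in replicate 1 and 86.3 TPM in replicate 2. The ribosome-associated Dnajc2 had 53.8 and 57.5 TPM, the splicing-related Dnajc17 had 20.5 and 23.8 TPM, and Dnajc21, of ribosome assembly, had 8.84 and 9.11 TPM. The other class C members, Dnajc4, Dnajc14, Dnajc16, Dnajc18, Dnajc22, Dnajc24 and Dnajc27, had means between 1.69 ± 0.0707 TPM (Dnajc22) and 33.3 ± 0.707 TPM (Dnajc14).

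Small heat shock genes were the lowest family. Of 8 genes, 4 were expressed, against 61.5% of all protein-coding genes, and the median of the 8 was 2.11 ± 0.332 TPM. Hspb11 had 25.2 TPM in replicate 1 and 28.1 TPM in replicate 2, and its product is known as a part of the intraflagellar transport machinery of cilia. Hspb1, a heat-inducible member, had 11.4 TPM in replicate 1 and 11.1 TPM in replicate 2. Hspb6 had 8.19 and 6.36 TPM, and Hspb8, the partner of Bag3, had 4.31 and 3.19 TPM. Hspb2 had 0.35 TPM in replicate 1 and 0.56 TPM in replicate 2, Hspb3 had 0.38 and 0.06 TPM, and Hspb7 had 0.11 and 0.03 TPM. Hspb9 had 1 count in replicate 1 and 0 in replicate 2, where 0 counts allow up to 0.211 TPM.

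Of 4 small heat shock genes known mainly from striated muscle, Hspb6 alone was expressed, against 61.5% of all protein-coding genes. Of 8 genes known mainly from testis, 6 of them members, 3 were expressed, against that same 61.5%. These were Dnajb3 with 11.1 TPM in replicate 1 and 10.7 TPM in replicate 2, Dnajb13 with 2.60 and 3.24 TPM, and Hspa1l. Dnajb3 overlaps 8 genes on the other strand, and the use of read strand is not given in the sources used here. Dnajb7 had 1.34 and 1.56 TPM. Dnajb8 was at 0 in both libraries, which allows up to 0.144 TPM in replicate 1 and 0.14 TPM in replicate 2.

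BAG genes, whose domain helps HSP70 exchange nucleotide, were expressed in 6 of 6 cases. Bag1 had 142 TPM in replicate 1 and 136 TPM in replicate 2. Bag6, which guides tail-anchored proteins, had 68.0 and 67.1 TPM, and Bag5 had 58.8 and 59.5 TPM. Bag2, an inhibitor of the ubiquitin ligase CHIP, had 19.4 and 18.1 TPM, and Bag4 had 17.4 and 17.0 TPM. Bag3, a stress-induced partner of small heat shock proteins in autophagy, was lowest with 2.04 TPM in replicate 1 and 1.63 TPM in replicate 2.

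Genes known as heat inducible ranged widely in level. Of 7 on that list, 6 were expressed, and Hsp90aa1 made up 87.1% of the list's TPM as deposited. By the length of 1 transcript Hsp90aa1 itself was lower, at 519 ± 7.82. Hsph1 and Dnajb1 were above 70 TPM, Hspa1a and Hspb1 were above 10 TPM, and Hspa1b was the gene under 1 TPM. Hsf1, the main heat shock factor, had 35.4 TPM in replicate 1 and 35.3 TPM in replicate 2. Hsf2, known from developing brain, had 36.6 and 41.2 TPM, and Hsf3, Hsf4 and Hsf5 were under 1 TPM. Of the early response genes listed, Jun was highest, with 44.3 TPM in replicate 1 and 40.6 TPM in replicate 2. Ier2 had 14.6 and 13.8 TPM, Junb had 5.51 and 4.29 TPM, and Egr1 had 2.46 and 2.70 TPM. Fos had 1.30 and 1.16 TPM, Atf3 had 1.27 and 1.28 TPM, and Fosb was under 1 TPM.

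Partner genes outside the symbol rule were expressed as well. All 15 HSP90 cochaperones were expressed, and 9 passed 100 TPM. Fkbp4, a steroid receptor immunophilin, had the highest mean, with 317.7 TPM in replicate 1 and 302.6 TPM in replicate 2. Ptges3, which encodes p23, had 288.9 and 302.9 TPM, so the values of both genes overlapped. The third mean was that of Stub1, which encodes CHIP, with 228 and 223 TPM. Stip1, the adaptor between HSP70 and HSP90, had 184 TPM in replicate 1 and 170 TPM in replicate 2. All 6 nucleotide exchange and assembly factors were expressed, led by St13 with 146 and 152 TPM.

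Genes that act before and after the chaperonin were expressed too. All 6 prefoldins, which hand clients to the chaperonin, were expressed, led by Pfdn5 with 369 TPM in replicate 1 and 378 TPM in replicate 2. All 5 tubulin cofactors, which act after it, were expressed, led by Tbcb with 358 and 352 TPM. The mitochondrial HSP90 gene Trap1 had 44.7 TPM in replicate 1 and 40.1 TPM in replicate 2. All 6 unfolded protein response genes were expressed, led by Xbp1 with 130 and 124 TPM, while the stress-response factor Ddit3 had 23.2 and 23.8 TPM. The lens crystallin Cryab, another small heat shock gene, had 6.94 TPM in replicate 1 and 6.11 TPM in replicate 2.

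The pools matched closely for these genes. Ratios of replicate 1 over replicate 2 used rounded counts plus 0.5 and TMM library sizes. With a mean of 10 or more counts, 79 members were compared, and 1 passed 1.5-fold in either direction, against 8.16% of 18269 Ensembl genes. With 1 library on each side no test was made. That member was Cct6b at 0.238-fold (exact binomial 95% interval 0.0538 to 0.654, counting error only), higher in replicate 2 like 4.04% of genes, and no member passed on the side of replicate 1, as 4.12% of genes did. At a mean of 100 or more counts, 0 of 73 members passed, against 1.04%, a share too low for this count to set the members apart. The ratio was within 10% of even for 64 of 79 members, which is 81%, against 58.2% of all genes compared. The median size of the log2 ratio was 0.049 for the members and 0.107 for all genes, and at 100 or more counts it was 0.045 and 0.080. The members were more abundant than other protein-coding genes, and counting noise in a ratio falls as counts rise. Beyond these cuts the genes were not matched by count, so the part of abundance in the members' closer ratios was not tested.

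**Figure D3:**
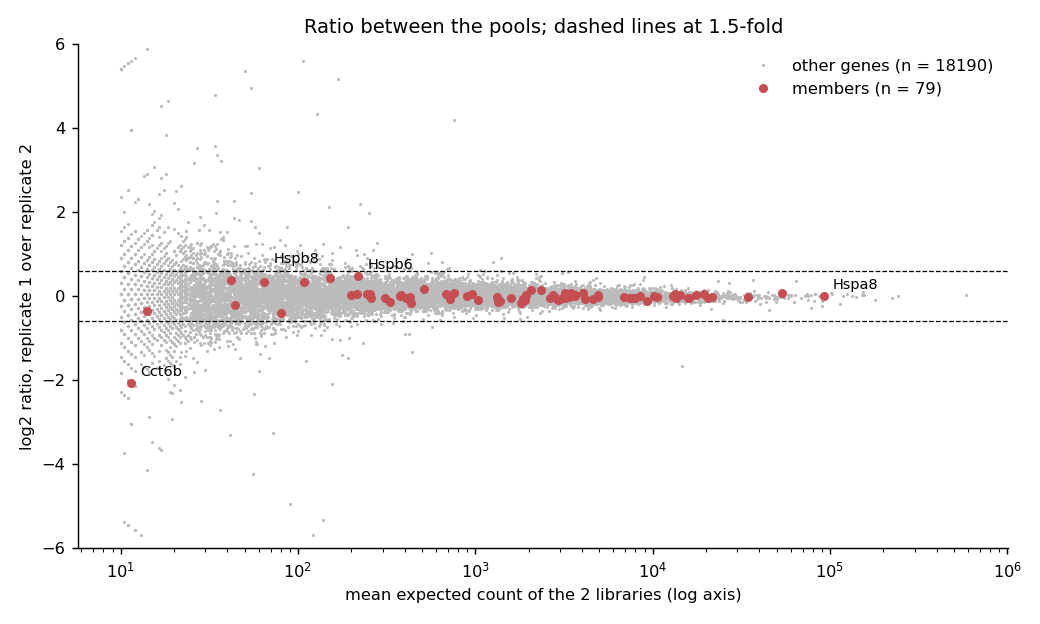
Log2 ratio of replicate 1 over replicate 2 against the mean expected count (log axis) for 79 members (red) and 18190 other genes (grey), with dashed lines at 1.5-fold. The axis leaves out 16 other genes beyond 6 in either direction. Members hug the zero line at high counts, Cct6b lies below the lower line, and Hspb6 and Hspb8 lie just under the upper one.

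The largest ratios at 100 or more counts belonged to small heat shock genes. Hspb6 was 1.39-fold higher in replicate 1 (interval 1.14 to 1.68), and Hspb8 was 1.35-fold higher (1.07 to 1.71). The muscle genes Hspb3, with 6 counts in replicate 1 and 1 in replicate 2, and Hspb7, with 7 and 2, leaned the same way. The muscle gene Hspb2 leaned the other way, with 6 counts in replicate 1 and 10 in replicate 2. The intervals of Hspb2, Hspb3 and Hspb7 all include an even ratio. All 5 markers of skeletal and heart muscle were higher in replicate 1. They summed to 58.9 TPM in replicate 1 and only 4.9 TPM in replicate 2, with Actc1 at 44.8 and 2.44 TPM and Tnnt2 at 10.7 and 0.56 TPM. Liver markers Alb and Afp summed to 11.7 TPM in replicate 1 and 0.3 TPM in replicate 2, and skin markers Krt5 and Krt14 to 0.3 and 9.7 TPM. Erythroid markers summed to 14767 TPM in replicate 1 and 11522 TPM in replicate 2. All 3 microglia markers were higher in replicate 1 too, C1qa by 1.34-fold, C1qb by 1.25-fold and Tyrobp by 1.34-fold. They summed to 97.6 TPM in replicate 1 and 75.2 TPM in replicate 2, and the 3 endothelial markers to 135.7 and 112.0 TPM, with Cldn5 higher by 1.24-fold. Their part in the ratios of the small heat shock genes was not tested.

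Several of the most abundant members carried short transcripts of classes that are not protein coding. Hspa8-202, the leading coding transcript of Hspa8, took 52.5 ± 0.339% of its TPM, and the 456 nt retained-intron transcript Hspa8-204 took 23.5 ± 0.898%. Hsp90ab1-206, a 703 nt transcript annotated for nonsense-mediated decay, took 27.2 ± 0.636% of Hsp90ab1. In Cct8 such a transcript took 20.5 ± 2.6%, and in Cct3 a retained-intron transcript took 22.5 ± 1.07%. For the 62 members at 10 TPM or more, the shares of the retained-intron, decay and processed-transcript classes were summed. The median of this sum was 2.15%, against 2.95% over 8920 other protein-coding genes at that level. Transcripts that are not in GENCODE M21 stayed out of it.

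**Figure D4:**
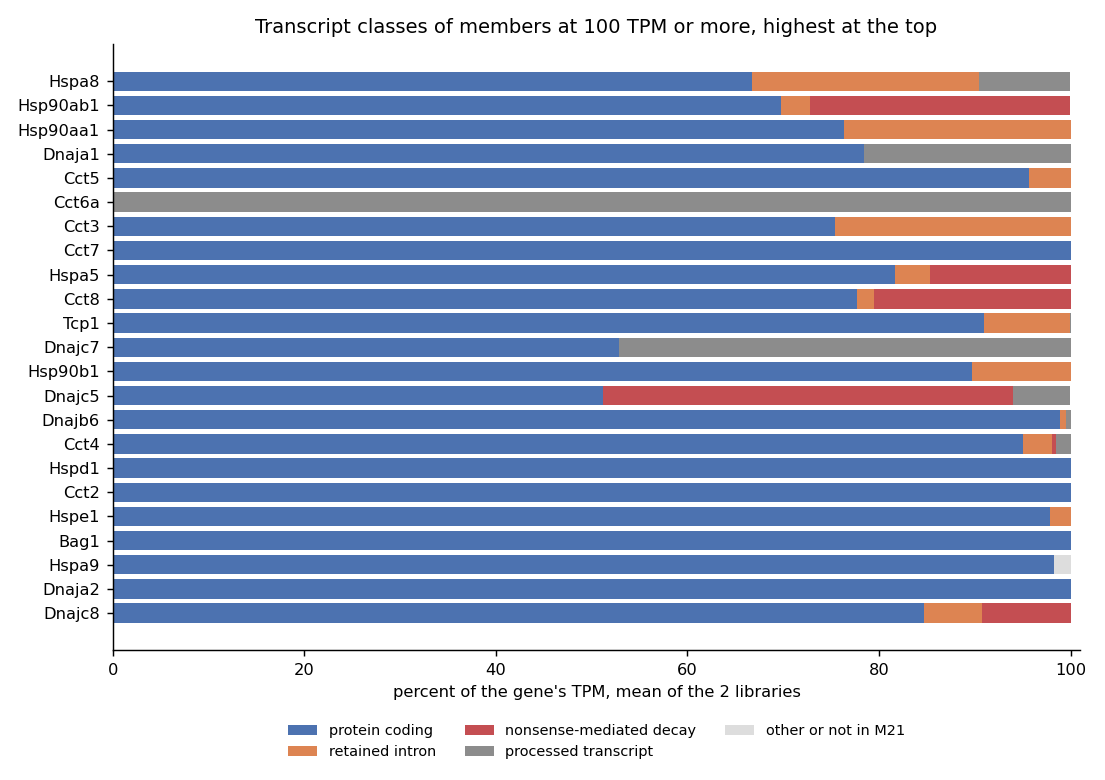
Percent of each gene's TPM by GENCODE M21 transcript class, mean of the 2 libraries, for the 23 members at 100 TPM or more in both, with the highest at the top. Retained-intron and decay classes together are largest in Hspa8, the cytosolic HSP90 genes, Cct3, Cct8 and Dnajc5. Smaller shares stand in other members, such as Hspa5, Dnajc8, Hsp90b1 and Tcp1. The single transcript of Cct6a is classed as a processed transcript.

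The leading transcript was not annotated as protein coding in 5 of the 62 members, against 7.15% of protein-coding genes at 10 TPM or more. These were Cct6a, Dnajc1, Dnajc2, Dnajc5 and Dnajc15. The Dnajc2 transcript Dnajc2-207, with a retained intron, took 53.0 ± 0.325% of its gene. Dnajc15 had 1 transcript, annotated for decay, and Dnajc5-204, also a decay transcript, took 42.8 ± 1.05%. The leading transcript took under 50% of the gene in 12 of 62 members, against 20.5%. It was lowest in Dnaja1, where Dnaja1-201 took 33.3 ± 0.948%. The others were Bag1, Bag6, Cct4, Dnajc1, Dnajc5, Dnajc6, Dnajc7, Dnajc13, Dnajc24, Hspa4 and Hspa4l.

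The leading transcript was the same in both libraries in 54 of 57 expressed members with several transcripts, against 91.9% of such genes. It differed in Dnajb13, Dnajc24 and Dnajc28. In Dnajb13, Dnajb13-201 took 45.3% in replicate 1 and 100% in replicate 2, at 68 and 93 counts for the gene.

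The second measure moved few members by a large factor. The deposited TPM was at least 1.5 times the measure by the length of 1 transcript in 7 of 77 expressed members, against 7.22% of expressed protein-coding genes. The transcript with the most TPM was not the one with the most reads in 5 of the 62 members at 10 TPM or more, against 9.37%. They were Hspa4l, Hsp90aa1, Dnajc1, Dnajc2 and Dnajc4. The 7 members were Dnajc25, Hspa4l, Hsp90aa1, Dnajc13, Dnaja1, Dnajc7 and Bag6. For Dnaja1 the means were 520 ± 18.3 TPM as deposited and 300 ± 8.25 by that measure. The median quotient of both measures was 0.90 for the members and 0.89 for all expressed protein-coding genes. Scaling enters this quotient as well as length. Cct2 and Cct7 have 1 transcript each, so their length does not differ, and their quotient was 0.876. The cut at 1.5 times therefore mixes length and scaling.

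Near copies limit some of these values. Of 83 members with a transcript sequence in GENCODE M21, 52 shared no 100 nt window with another gene. In Hspa8, 73.9% of windows along Hspa8-202 occur elsewhere, with 1305 of 1920 in Gm15459. Hspa1l shared 70.8% of its windows, Hspa1a 56.5%, Hspb1 56.3% and Hsp90aa1 47.5%. The spans of 45 of 84 members overlap another gene, 22 on the same strand and 38 on the other. Shared windows and overlaps were not counted over all protein-coding genes, so these counts do not set the members apart.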

How the data were processed

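Total RNA of 2 midbrain pools was compared. Per the file headers, the deposited gene and transcript tables hold expected counts, TPM and their posterior means and SDs, and the transcript tables the percent of a gene's TPM in each transcript. The authors' notes deposited beside the tables give mm10 and GENCODE M4. For the aligner, counter and read strand, the sources used here give nothing. TPM was scaled by the authors over all rows, spike-ins included.

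Symbols came from gene IDs without version (42462 of 43346 matched), and transcript names, biotypes and coordinates from GENCODE M21. Expected counts were rounded before ratios. TMM factors came from edgeR 4.0.16 and the alternative size factors from DESeq2 1.42.0 in R 4.3.3. The code was tested on simulated data. Python 3.11.15 served for the rest. Spike-ins, 2.30% of counts in replicate 1 and 2.42% in replicate 2, entered no library size. A second measure divided gene counts by the effective length of the transcript with the most reads over both libraries. Its results were scaled over Ensembl genes alone, and not over all rows as TPM was. Nothing in the labels ties embryos of the pools to litters, and both carry 1 donor label, so the SD may be partly technical. Intervals and floors cover counting error only, because copies of 1 molecule cannot be told apart.

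Members, lists and naming rules were chosen with earlier results of these data known. Values are given for all members but 7 of the J-domain class C genes, which belong to no list, and for non-members that lead their lists or bear on a result. Promoters are RefSeq's, GRCm38.p6.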

Additional observations from a re-analysis of the deposited data

Results flagged for a closer look

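Hspa14, an HSP70 gene whose human product is known as a partner of the ribosome-associated DNAJC2, had no gene row of its own and so is not among the 84 members. Its transcript, 1795 nt long, was listed under the gene ID that GENCODE M21 names Gm45902. It had 45.4 TPM in replicate 1 and 43.6 TPM in replicate 2, a mean of 44.5 ± 1.26 TPM (SD, n = 2), from 1797 and 1783 counts. It took 75.4% of that gene's TPM in replicate 1 and 74.3% in replicate 2. It drew attention as a signal in rows that no comparison used, above the limit that a count of 0 allows.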

How the results depend on the processing

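Of 35 alternatives, 23 left their result within the spread of the pools or, for counts, within 1.5 times, and 12 moved it. Part of these 23 could not have come out otherwise. Leaving out 1 of 2 libraries always moves a mean by less than their SD. Rescaling over protein-coding genes cannot change a ratio between genes. None turned the sign of the difference of medians. By the length of 1 transcript, orders of single genes did turn, such as Hspa4 against Hspa4l (0.882 as deposited, 1.79 by that length) and those given for the chaperonin and J-domain genes. The members' share of the TPM of Ensembl genes was 1.25%. It became 1.22% with posterior mean TPM, 1.43% rescaled over protein-coding genes and 1.08% by the length of 1 transcript. The difference of medians was 2.56, and became 2.49, 2.59 and 2.61 under those settings, 2.75 with a pseudocount of 0.1 and 0.928 among genes at 1 TPM or more alone. By the length of 1 transcript, added after seeing the data, the chaperonin spread was 2.14-fold in place of 2.24-fold, and Hspa8 over Hspa1a plus Hspa1b 187 in place of 242. The count past 1.5-fold was 1, and became 4 with a minimum mean count of 1, where Hspb2, Hspb3 and Hspb7 joined Cct6b, and 0 with a minimum of 50.

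Leaving out 1 library gave 77 expressed members both times and 1.25 to 1.26% of the TPM of Ensembl genes. Differences were then 2.53 to 2.58, spreads 2.23 to 2.24-fold and Hspa8 ratios 238 to 247. At 5 TPM, 69 members passed. Spike-in scaling moved all log2 ratios by 0.09 (replicate 1 over replicate 2) and left the count at 1. No paired analysis was possible because the libraries belong to 1 group. With 2 pools, differences under their spread were not detectable, and no ratio between pools has a replicate.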
